A study of Mus musculus with 2 samples.

Results

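The sites described here are CTCF peaks near gene promoters, with little G and C around the peak summit. A member is a peak on chromosomes 1 to 19 or X of the deposited optimal list whose summit lies within 1000 bp of protein-coding transcription start sites (TSSs) of exactly 1 gene, with a GC content under 50% within 500 bp of the summit. There were 1657 such sites among 64732, and they fell at 1558 of 21670 protein-coding genes (7.19%). Of these genes, 1467 had 1 such site, 83 had 2 and 8 had 3. The data are CTCF ChIP-seq peak lists from whole lung of newborn mice (postnatal day 0, strain B6NCrl), in 1 group of 2 replicates. The labels give the 2 replicates 1 biosample and 1 donor, and differences between them may be technical only. No treatment, altered genotype or second tissue was part of the design, and the cell types of the lung were not separated. GC content and TSS distance chose the sites, and the members' own values of these are a description.

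CTCF is a DNA-binding protein with a row of zinc fingers that reads a long, directional motif. It halts cohesin as it extrudes chromatin loops, and many loop anchors and domain boundaries lie at its sites, often with motifs that face each other. Most promoters of broadly expressed genes lie in CpG islands, which are rich in G, C and the dinucleotide CpG. GC-poor promoters are typical of genes used in few tissues and of alternative start sites inside genes, and methylation of CpG within its motif can weaken CTCF binding.

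The sequences of named sites show what the motif looked like in this class. Each line gives 30 bases, 5′ to 3′ on the strand that carries the motif, read from GRCm38, the assembly that mm10 names. Capitals mark the best match to the 12-letter CTCF core, which was searched on both strands within 50 bp of the summit. Letters are counted from 1 at the 5′ end of the core, and a substitution gives the letter of the core first and the letter of the site last. Letter 5 of the core takes C or T and letter 9 takes G or T, so mismatches there are named by position only. The first set holds 7 genes with some of the strongest sites.
Ddx47, chr6:135011533-135011562, plus strand, mismatch at letter 9: ccagacccgCCAGCAGGAGGCgttcagaac
Abca14, chr7:120204002-120204031, minus strand, mismatches at letter 5 and G11A: ccatcacagCCACGAGGGGACgctcgtcgc
Sucla2, chr14:73524851-73524880, plus strand, mismatch at letter 5: cacttgcagCCAGGAGAGGGCagagcgagg
Timm22, chr11:76406760-76406789, minus strand, mismatches C1G and G11A: gttgagcttGCAGCAGGGGACgcgcgtgtc
Cd276, chr9:58540024-58540053, plus strand, no mismatch: ctctgatgaCCACTAGATGGCgccagacac
Nfatc4, chr14:55822599-55822628, plus strand, mismatch at letter 5: gtataaaacCCACAAGGTGGCaggagaaac
Tnfaip8l2, chr3:95142801-95142830, plus strand, mismatch G11T: catgcgtgaCCAGCAGGTGTCagcatcgag

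The second set shows cores at summits in repeat-masked sequence, 4 with the mismatch at letter 5 and 1, at Ttn, without any.
Mybpc1, chr10:88552940-88552969, plus strand: gcctaaaggCCAGAAGAGGGCaccctatct
Cyp1a1, chr9:57688252-57688281, plus strand: ccacgggggCCAGAAGGGGGCatcaaattc
Cyp21a1, chr17:34805381-34805410, minus strand: actctgcggCCAGAAGAGGGCagtggaact
Tex48, chr4:63622627-63622656, plus strand: ggtgtcaggCCAGAAGGGGGCgctacagca
Ttn, chr2:76980409-76980438, minus strand: ccactttgaCCACTAGGGGGCattccttgc

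The third set shows cores with a CpG at letters 2 and 3, which come from the substitution A3G and were rare in the class. The core of Foxa1 also has A6G, so it counts among those with 2 mismatches.
Il6, chr5:30013222-30013251, minus strand: tcaatagctCCGCCAGAGGGCaaggaactg
Rpl7l1, chr17:46783178-46783207, plus strand: tcccagtggCCGCCAGGGGGCtccttaaga
Foxa1, chr12:57545124-57545153, minus strand: tctctaggaCCGCTGGGTGGCgctagtgcg

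GC-poor promoter sites carried the CTCF core far more often than GC-rich ones. Sites with at most 1 mismatch to the core near the summit numbered 671 of 1657 (40.5%, 95% Wilson interval 38.2 to 42.9), beside 48.3% of all sites in the list. At GC-rich promoters of 1 gene, where the GC content is 50% or more, it lay at 1375 of 7931 sites (17.3%, 16.5 to 18.2). The difference was 23.2 percentage points (Fisher's exact test, two-sided, adjusted p = 6.68e-86 over 8 comparisons). The units of this test are sites of 1 pair of libraries, neighbouring sites are not independent, and the intervals cover counting error only. Sites at promoters shared by several genes had the core in 12.2% of 894 cases.

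The core sat at the summit. In windows of the same length centred 1000 bp to each side, 41 of 3314 (1.24%) held a core. Against the flank at the higher coordinate, a core was present at the centre alone in 661 members and in the flank alone in 16 (exact McNemar test, two-sided, p = 2.54e-172). The median distance from the core's centre to the summit was 7.5 bp, and 560 of the 671 cores (83.5%) were centred within 20 bp of it. The search covered only 50 bp to each side of the summit and took the nearest of equal matches, which bounds these distances. A core without any mismatch was present at 119 members (7.18%), beside 3.46% of GC-rich promoter sites. With up to 2 mismatches the shares were 68.7% and 48.0%.

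GC-poor promoter sites nevertheless held the core less often than GC-poor sites far from promoters. Of 41170 sites under 50% GC and over 1000 bp from any protein-coding TSS, 56.4% had it (difference 15.9 percentage points, Fisher's exact test, adjusted p = 7.44e-37). This test and 9 others named below as added were chosen after their values had been seen, and their p-values are adjusted over those 10. Among one-gene promoter sites the share was lower at higher GC content. It was 41.9% of the 124 sites at 35 to 40% GC, 45.8% of the 467 at 40 to 45% and 37.9% of the 1056 at 45 to 50%. Above the limit it was 24.6% of the 1918 at 50 to 55% and 11.1% of the 1107 at 65 to 70%. The largest gap between neighbouring bins from 35% GC up was at the limit itself, and the share went on falling above it to 70 to 75% GC. At 49.95% GC, just under the limit, there were 29 members, Gdap1 and Aaed1 among them. At 50.05%, just over it, there were 23 sites, Smarca2 and Meis1 among them.

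**Figure D1:**
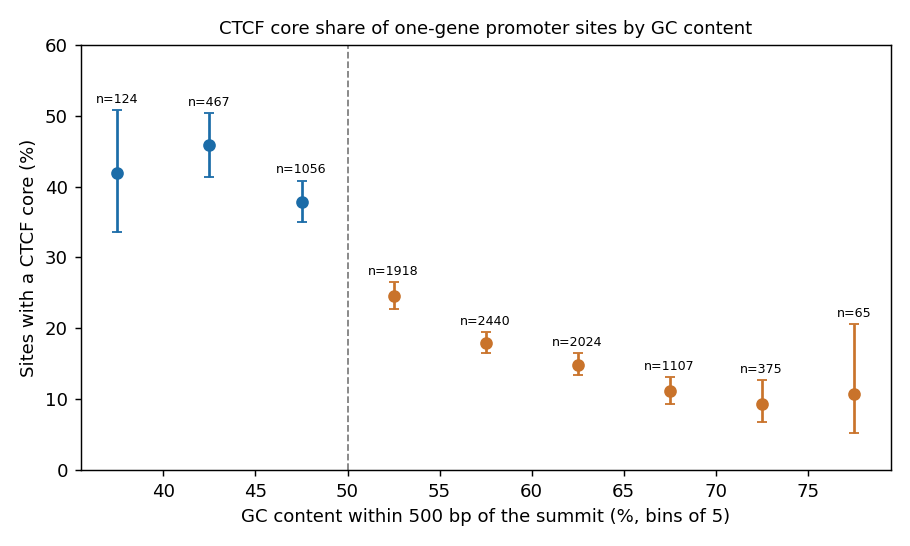
Share of one-gene promoter sites with a CTCF core (at most 1 mismatch) on the vertical axis, in bins of 5 percentage points of GC content within 500 bp of the summit. Points are shares, bars are 95% Wilson intervals, n is the number of sites (bins of under 20 sites are not drawn) and the dashed line is the limit of 50%. The share is 41.9% at 35 to 40% GC, 45.8% at 40 to 45%, 37.9% at 45 to 50% and 24.6% just above the limit, and it is 11.1% at 65 to 70%.

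Position relative to the start site differed between the classes as well. GC content was taken around the summit, so the limit that splits the classes can itself sort sites by position. Its part in these differences was not tested. Of the members, 1081 (65.2%) had their summit upstream of the nearest TSS, beside 51.7% of GC-rich promoter sites (adjusted p = 9.40e-24, Fisher's exact test). The median distance to the nearest TSS was 526 bp among members and 185 bp among GC-rich sites. Summits were most frequent just before the start, with 205 members (12.4%) in the 100 bp upstream of it. The remaining members were spread over the whole window, with 570 between 500 and 1000 bp upstream.

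The core share was lowest next to the start site and level farther out. Of the 455 members under 200 bp from the TSS, 123 (27.0%) had a core, then 43.1% of those at 200 to 400 bp and 46.3%, 46.2% and 45.9% in the next 3 bins of 200 bp. The share of repeat-masked summits moved in the same way, from 6.15% under 200 bp to between 21.5% and 29.5% in the other bins. The members under 200 bp also include 38 of the 39 at clustered protocadherin genes, which are described below and lacked the core. The part of either in the step was not tested. Members exceeded GC-rich sites at both distances in added tests. Under 200 bp the difference was 11.4 percentage points (27.0% against 15.6%, adjusted p = 6.16e-09, Fisher's exact test), and from 200 bp it was 26.4 (45.6% against 19.2%, adjusted p = 2.17e-68). The excess over GC-rich promoters was thus present, and smaller, close to the start site.

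**Figure D2:**
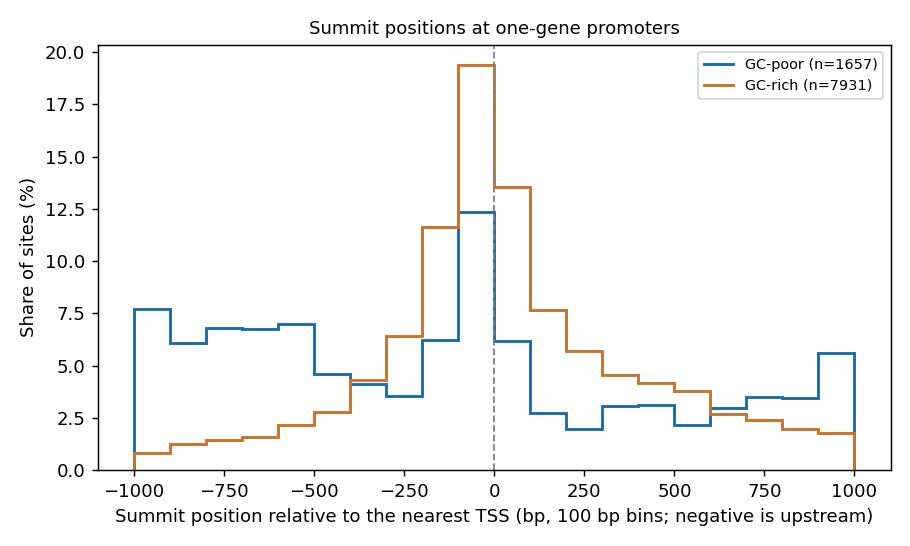
Share of sites (vertical axis, %) by position of the summit relative to the nearest TSS of the gene (horizontal axis, bins of 100 bp, negative values upstream) for 1657 GC-poor and 7931 GC-rich promoter sites. Both peak in the 100 bp upstream of the TSS, with 12.4% of the GC-poor sites there, and the GC-poor sites are spread more widely, with medians of 526 and 185 bp from the TSS.

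Many members lay at internal start sites. The nearest TSS was within 1000 bp of the gene's outermost annotated 5′ end at 1138 members (68.7%), beside 83.3% of GC-rich sites (adjusted p = 7.39e-39, Fisher's exact test). By the annotation of the site's own gene, 793 summits (47.9%) were outside the gene, 653 (39.4%) in an intron, 157 (9.48%) in a UTR and 54 (3.26%) in a coding exon. The core was present in 43.6% of those outside the gene and in 41.5% of the intronic ones. It was present in 25.5% of the summits in UTRs and in 25.9% of those in coding exons.

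At Cd276, which encodes the immune checkpoint protein B7-H3, the summit was in an intron, 675 bp downstream of the nearest TSS and 15398 bp from the outermost 5′ end. At Slc23a2, a vitamin C transporter gene, it was 103 bp upstream of an internal TSS and 33557 bp from the outermost end. Col14a1, a collagen gene, had its site 141417 bp inside the gene and 341 bp from a TSS there.

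No preferred direction of the motif relative to transcription passed the test at the GC limit of 50%. Of 665 members whose core had 1 best strand, 349 (52.5%, 48.7 to 56.3) carried it on the strand of the gene (exact binomial test, two-sided, p = 0.215). Upstream of the TSS the count was 243 of 459 (p = 0.225, exact binomial test) and downstream 106 of 206 (p = 0.728). The interval of the first share reaches 56.3% on the gene's strand. With a GC limit of 55%, the share was 53.7% (p = 0.0135, exact binomial test), which passed the threshold. Among the sequences printed above, the core of Ddx47 pointed along its gene, and those of Cd276 and Tnfaip8l2 pointed against theirs.

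Repeat-masked sequence lay under these summits about as often as over the whole list, and it set apart a group of members. The reference was masked at the summit of 355 members (21.4%), beside 19.5% of all sites. At GC-rich promoters it was masked at 257 sites (3.24%; adjusted p = 3.14e-123, Fisher's exact test, members against GC-rich sites). GC-poor sites away from TSSs were masked more often still (26.4%; difference -4.95 percentage points for members, adjusted p = 5.58e-06, Fisher's exact test, added). In rodents, copies of the B2 transposon are known to carry CTCF motifs. The repeat families at these sites were not analysed here.

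Masked members had more cores and lower signal. A core was present at 235 of 355 masked members (66.2%) and at 436 of 1302 others (33.5%; difference 32.7 percentage points, adjusted p = 5.41e-28, Fisher's exact test, added). The median peak signal, a value that the authors deposited for each peak and whose scaling is not stated, was 26.4 in replicate 1 and 23.3 in replicate 2 for masked members. For the others it was 40.4 and 36.9. Outside masked sequence the members still exceeded GC-rich promoter sites in core share, by 16.5 percentage points (33.5% against 17.0%, adjusted p = 7.26e-39, Fisher's exact test, added).

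The cores themselves differed in where they departed from the motif. Among member cores with exactly 1 mismatch and 1 best strand, the mismatch was at letter 5 in 247 of 546 (45.2%), beside 143 of 1077 (13.3%) at GC-rich promoters (adjusted p = 1.61e-43, Fisher's exact test, added). This excess lay in masked sequence. There, 200 of 215 such cores (93.0%) had their mismatch at letter 5, and elsewhere 47 of 331 (14.2%; adjusted p = 4.37e-81, Fisher's exact test, added). The printed sites of Mybpc1, Cyp1a1, Cyp21a1 and Tex48 are of this kind, while the masked site of Ttn has an exact core.

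GC-rich promoter cores, by contrast, had their mismatch most often at letter 3, in 395 of 1077 (36.7%), beside 57 of 546 member cores (10.4%). A CpG at letters 2 and 3, where methylation could occur, was present in 22 of 665 member cores (3.31%) and in 221 of 1351 GC-rich ones (16.4%; adjusted p = 5.68e-20, Fisher's exact test). For summits outside masked sequence the shares were 4.84% and 17.1%. The exact core has no CpG at these letters. GC content was taken over a window that includes the core, so the limit that splits the classes can itself sort cores by their letters. Its part in these differences was not tested. Letter 8, which takes A or G, was A in 429 of 665 member cores and in 425 of 1351 GC-rich ones, a difference that was not tested. Il6 and Rpl7l1, printed above, are among the 22. DNA methylation itself was not measured.

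A group of members on chromosome 18 stood apart in the opposite direction. Clustered protocadherins are cell-surface adhesion genes with many alternative first exons in a row, and their promoters are known CTCF targets. They held 39 members, all within 400 bp of a TSS, and none had the core (0 of 39, which allows a share of up to 7.69% by a limit of 3 counts and up to 8.97% by the Wilson interval). With up to 2 mismatches, 7 of the 39 matched. Their median signal was 21.6 in replicate 1 and 20.3 in replicate 2. Chromosome 18 had 80 members in all and a core share of 16.3%. Without the protocadherins it was 31.7% of 41, and the other chromosomes ranged from 31.9% to 51.0%. Leaving the protocadherins out moved the core share of all members from 40.5% to 41.5%.

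Signal and core went together within the class. Members were ranked by pooled signal and divided into 4 bins of equal size. The core was present at 262 of 414 members (63.3%) in the highest bin, then at 44.2% and 32.4%, and at 92 of 415 (22.2%) in the lowest. The highest and lowest bins differed by 41.1 percentage points (Fisher's exact test, two-sided, p = 7.75e-34). GC-rich promoter sites fell from 40.4% to 4.79% over their own 4 bins. In each of the 4 bins the members had the higher share.

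**Figure D3:**
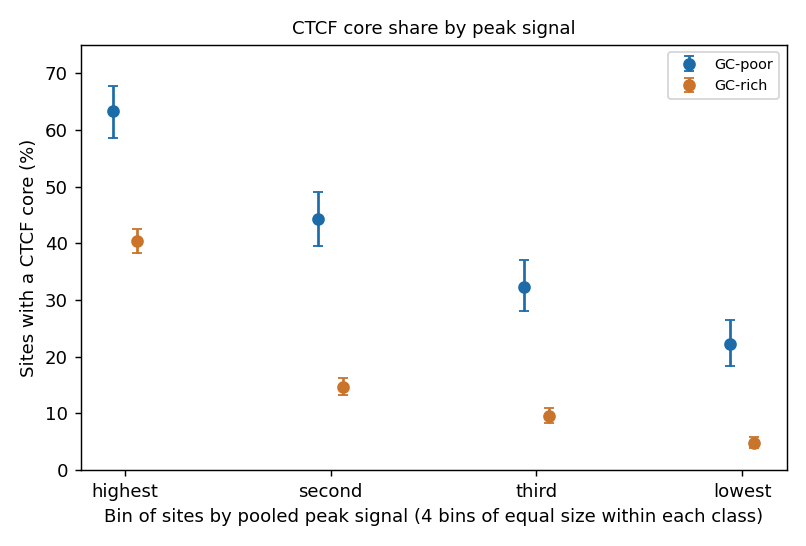
Share of sites with a CTCF core (vertical axis, %) in 4 equal bins of sites ordered by pooled peak signal within each class (horizontal axis, highest to lowest), for GC-poor and GC-rich promoter sites. Points are shares and bars are 95% Wilson intervals. GC-poor sites fall from 63.3% to 22.2% and lie above GC-rich sites in each bin.

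The signal of the class as a whole was close to that of GC-rich promoters, but sites with a core were weaker. Median signals were 35.7 in replicate 1 and 32.5 in replicate 2 for members, and 31.0 and 29.1 for GC-rich promoter sites. Over all sites of the list they were higher, at 40.8 and 37.5. Members with a core had medians of 68.9 and 65.6, and GC-rich sites with a core 99.1 and 94.7. Members without a core (26.2 and 24.8) and GC-rich sites without one (26.8 and 24.8) were nearly level. GC-poor sites with a core away from promoters were lower than both, at 59.7 and 55.4.

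A site counts as strong below when it was among the 16183 sites of highest pooled signal in the whole list. Of the members, 363 (21.9%) were strong, beside 18.0% of GC-rich sites (adjusted p = 3.13e-04, Fisher's exact test). Among sites with a core, however, 236 of 671 members (35.2%) were strong and 656 of 1375 GC-rich sites (47.7%; adjusted p = 9.65e-08, Fisher's exact test, added). Without a core the shares were 12.9% and 11.8% (difference 1.06 percentage points, adjusted p = 0.343, Fisher's exact test, added). The small excess of members over GC-rich sites thus stood beside a deficit among sites with a core and a larger share of members that had one. The difference between members and GC-rich sites, with or without a core, turned to -5.12 percentage points when only the 32366 sites of highest signal were kept (p = 0.00267, Fisher's exact test). It turned to -0.97 with a GC limit of 45% (p = 0.589, Fisher's exact test).

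The replicates placed the same members high and low. Signals per replicate are those of its highest peak within 100 bp of the summit, and 1605 members had one in both. Across these members, which share the tissue and the peak calling, Spearman's rho was 0.947, beside 0.956 over all sites. The list was thresholded by the irreproducible discovery rate, a filter that favours such agreement. The standard deviation of the log2 ratio of replicate 1 to replicate 2 was 0.46 over all members. It was 0.15 in the highest of the 4 bins of signal and 0.73 in the lowest, so single values of weak sites carry little weight. Read depth is unknown, since the lists hold no counts.

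Detection in both replicates was more frequent than at GC-rich promoters and close to that of the whole list. A peak of both replicates among their highest 64732 was present at 1370 members (82.7%), beside 76.8% of GC-rich sites (adjusted p = 1.06e-07, Fisher's exact test). The conservative list held 1430 members (86.3%), beside 81.8% of GC-rich sites (adjusted p = 1.10e-05, Fisher's exact test). Over all sites the 2 shares were 83.5% and 87.4%. In replicate 1, 32 members had no peak, and in replicate 2, 25 had none. The members at Tmem50a and Mum1l1, among those of lowest rank, had no peak in either replicate within 100 bp.

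**Figure D4:**
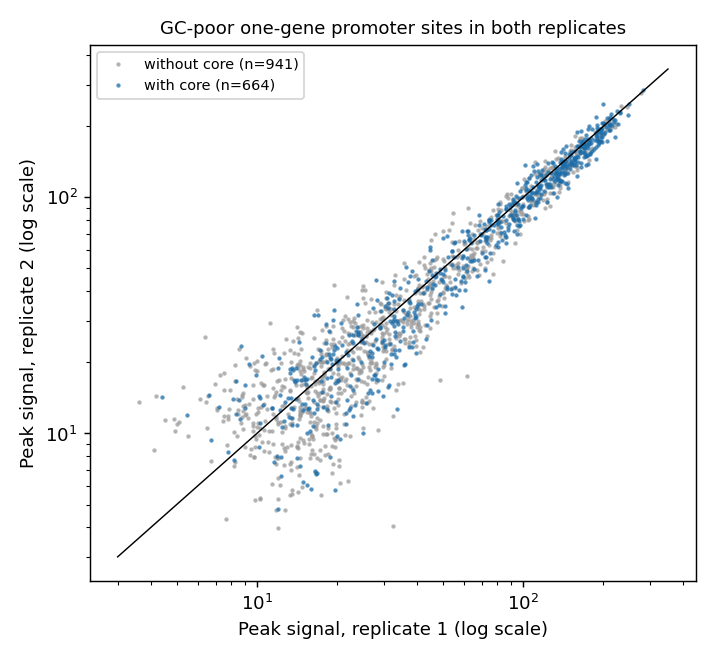
Peak signal of 1605 GC-poor promoter sites in replicate 1 (horizontal axis) and replicate 2 (vertical axis), both on log scales, with sites with a CTCF core in blue, sites without one in grey and the line of equality in black. Points narrow to the line at high signal, where the blue points are more frequent.

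The strongest members served genes of unrelated roles. Ddx47, which encodes an RNA helicase of ribosome production, reached 282.6 in replicate 1 and 284.6 in replicate 2, on the scale of the deposited signal, at 74 bp upstream of its TSS. Abca14, an ABC transporter gene, followed with 278.3 and 277.5 at 33 bp inside its UTR. Sucla2, which encodes a subunit of mitochondrial succinyl-CoA ligase, had 249.3 and 249.7. In each of these the replicates differed by less than 1% of the signal, and the order of the first 3 was the same in both.

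Timm22, part of the protein import machinery of the inner mitochondrial membrane, had 244.8 and 242.6. Cd276 had 247.4 and 224.0, and Nfatc4, a transcription factor gene of calcium signalling, 230.6 and 230.7. These levels overlap between neighbours in rank, and Cd276 is above Timm22 in replicate 1 only. Tnfaip8l2, which restrains immune activation, had 213.2 and 225.2, and Mro 221.6 and 212.6.

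High signal was also found without the core. Tmem270 had 233.4 in replicate 1 and 244.3 in replicate 2 with 3 mismatches in its best match. Vps13d, a lipid transfer protein gene, had 211.0 and 207.7 in a coding exon, Wbp2 216.5 and 198.4, Ttc24 204.2 and 207.7, and Slc7a7, a transporter of basic amino acids, 199.9 and 190.0. All 5 of these sites are in the highest of the 4 bins of signal. Over all 519 members without a match at 2 mismatches, the medians were 22.58 and 19.96.

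Several genes had more than 1 member, and their sites differed widely in strength. Chd9, a chromatin remodeller gene, had signals of 105.2 and 121.0 (replicates 1 and 2) at a site with a core 18 bp upstream of an internal TSS. Its second site, 503 bp away, had 30.6 and 26.8 without a core. The third, near the outermost 5′ end, had 8.99 and 8.73. Prkag2, which encodes a subunit of the AMP-activated kinase, had 99.1 and 91.6 at the site with a core, then 74.6 and 63.2, and 10.6 and 16.0. Phf21a, a histone-reading protein gene, had 89.3 and 84.3 with a core then 30.5 and 20.7, and 14.3 and 21.7. In each of these 3 genes, out of 8 with 3 members, the site with the core was the strongest. Atf7ip, another of the 8, went the other way. Its strongest site (67.3 and 49.4) had no core, and its site with a core had 47.0 and 46.3. The rest of the 8 are not described here.

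The members of lowest GC content show how far the class reached. Tfg, a gene of export from the endoplasmic reticulum, had an exact core at 31.1% GC, with signals of 35.3 and 27.1. Vmn1r20, a vomeronasal receptor gene, had 12.7 and 22.0 at 33.2% GC. Nuf2, which encodes a kinetochore protein, had 90.1 and 103.4 at 33.6% GC without a core. The median GC content of members was 46.4%, and their median ratio of observed to expected CpG was 0.338, beside 0.703 at GC-rich promoter sites. The 206 members with a CpG ratio of 0.6 or more had a core in 21.8% of cases, and the other 1451 in 43.1%.

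Gene lists were read only against the share of all protein-coding genes with a member, 7.19%. Of 20 genes of lung epithelial regulation and structure, 4 had a member. Elf3, an epithelial transcription factor gene, had an exact core 716 bp upstream and signals of 174.9 and 138.6. Foxa1, which encodes a pioneer factor of endoderm, had 105.1 and 81.0, and Id2 34.2 and 26.6. Of 20 surfactant and airway secretion genes, Lpcat1 alone had one (40.4 and 41.3), a gene of surfactant lipid synthesis. With 20 genes a list the intervals are wide, from 8.07 to 41.6% for the first list, which lies just above the background, and from 0.888 to 23.6% for the second, which includes it.

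Structural and muscle genes were near the background, with 2 of 44 collagens and 3 of 49 contractile genes. Col1a2, a chain of type I collagen, had 60.6 and 40.7, and Col14a1 18.2 and 21.4. Ttn, the giant sarcomere protein gene, had 143.7 and 125.3 at its masked exact core, Myl12b 57.4 and 57.2 and Mybpc1 28.4 and 22.9. Ttn is thus the strongest of these 5 by over 2 times in each replicate.

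Among lists of genes used in few tissues, the receptors of smell and the keratins had intervals below the background. Olfactory and vomeronasal receptors had 8 of 1434 genes (0.558%, 0.283 to 1.10), although 98.7% of them have a GC-poor 5′ end. Keratins and keratin-associated proteins had 0 of 106, which allows up to 2.83% by a limit of 3 counts and 3.50% by the Wilson interval. Lymphoid and myeloid lineage genes had 0 of 27, which allows up to 11.1% and 12.5%, so their interval includes the background. Chemokines, interleukins and receptors had 7 of 125 (5.60%, 2.74 to 11.1), among them Il12b with 123.5 and 130.4, Il18r1 with 107.0 and 111.5 and Il6 with 94.7 and 76.2. Cytochrome P450 genes had 4 of 94 (4.26%, 1.67 to 10.4), among them Cyp1a1, which oxidises aromatic hydrocarbons, with 86.1 and 67.7. Serpins had 4 of 61 (6.56%), liver genes 1 of 20 (Apob, 210.9 and 204.0) and testis-named genes 5 of 87 (5.75%). The intervals of these 5 lists include 7.19%.

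Ion channel genes had 5 of 128 (3.91%). The sodium channel genes Scn3a and Scn1a, which serve neurons, had exact cores 27 and 121 bp from a TSS, with 154.4 and 136.8 at Scn3a and 115.6 and 126.1 at Scn1a. Scn2a had 97.1 and 69.7, and its best match has mismatches at letter 5 and C12A. Glutamate and GABA receptor genes had 1 of 47, an exact core in Grik4 with 43.4 and 41.7. The 3 sodium channel genes lie on the same chromosome.

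The intervals of ribosomal protein and zinc finger genes lay above the background. Cytosolic ribosomal protein genes had 15 of 83 (18.1%, 11.3 to 27.7), mitochondrial ribosomal protein genes 12 of 78 (15.4%, 9.03 to 24.99) and zinc finger genes named Zfp 52 of 391 (13.3%, 10.3 to 17.0). A GC-poor 5′ end was present at 9 of the 83 cytosolic and 9 of the 78 mitochondrial genes, fewer than had a member. Some of these members thus did not lie at a GC-poor 5′ end. Of the Zfp genes 28.6% had such an end, beside 31.3% of all genes. Solute carriers had 34 of 365 (9.32%, 6.74 to 12.7), an interval that includes the background. Proteasome subunits had 1 of 39, at Psma1. Of the cytosolic ribosomal protein genes 66.3% had a CTCF site of any kind within 1000 bp of a TSS, beside 39.8% of all genes. Mrpl11 had an exact core 127 bp upstream with 194.6 and 195.2, and Rps29 had 109.7 and 129.5. The lists were compared with the background as counts only.

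**Figure D5:**
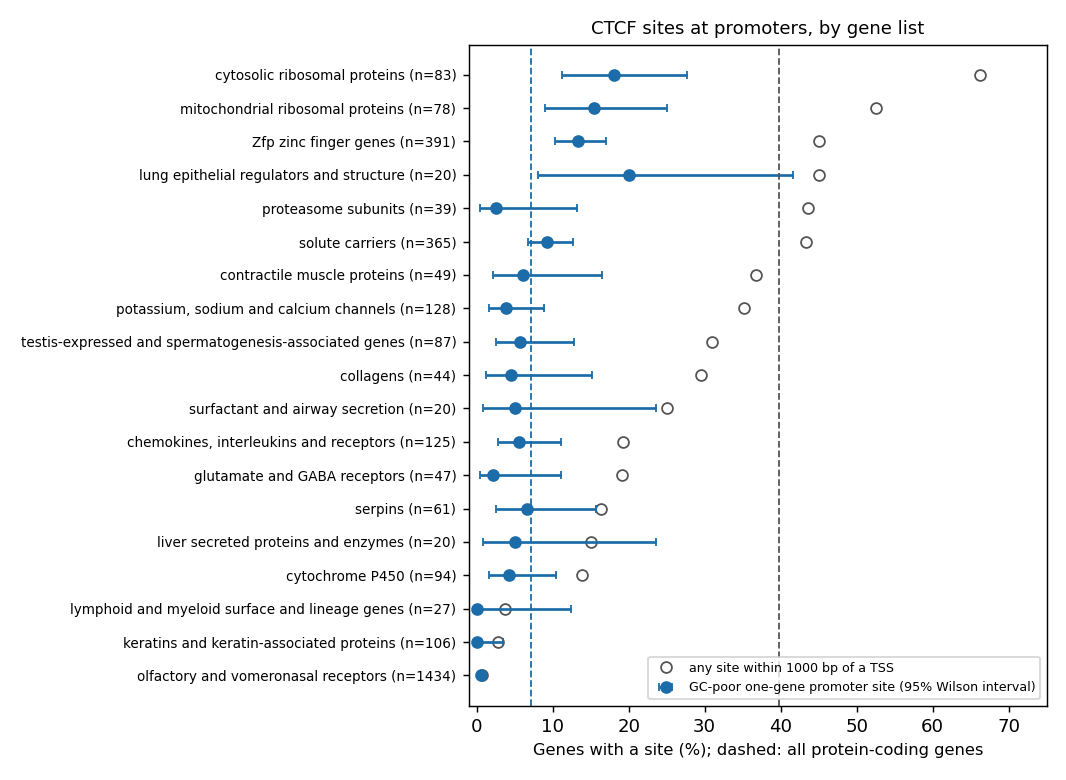
Share of genes with a CTCF site at a promoter (horizontal axis, %) for 19 gene lists (vertical axis, n genes). Filled points are genes with a GC-poor one-gene promoter site, with 95% Wilson intervals, open points are genes with any site within 1000 bp of a TSS, and dashed lines are the shares of all protein-coding genes (7.19% and 39.8%). Cytosolic ribosomal protein genes are at 18.1% and olfactory and vomeronasal receptors at 0.558%.

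CTCF was uncommon at GC-poor promoters in general. By GC content within 500 bp of the outermost 5′ end, 612 of 6777 genes under 50% (9.03%, 8.37 to 9.74) had a site within 1000 bp of that end, beside 7066 of 14893 at 50% or more (47.4%). The p-value of Fisher's exact test was too small to be represented. Below 50% the share rose steeply, from 0.350% of 572 genes at 30 to 35% GC to 16.3% of 2832 at 45 to 50%. Genes with a site were thus a minority of those with a GC-poor 5′ end, mostly from the upper part of that range. They are not the same set as the members, whose GC content was taken around the summit. With 1 TSS a gene there were 1098 members, so some members lay near 5′ ends of 50% GC or more.

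The TATA box, a motif of many GC-poor promoters, was not frequent at the TSSs nearest to members. The letters TATAAA on the gene's strand in the 50 bp before the TSS were present at 28 of 1625 TSSs nearest to members (1.72%). They were present at 1.11% of those nearest to GC-rich sites, at 4.17% of all protein-coding TSSs under 50% GC and at 2.20% of all. Members were chosen by GC content around the summit, so their nearest TSSs need not be under 50% GC. The 1.72% and the 4.17% thus belong to unlike sets. A match of these letters is a description and not a functional element.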

How the data were processed

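The sources were CTCF peak lists of 2 replicates, a pooled list and 2 lists thresholded by the irreproducible discovery rate (IDR), on mm10 per the labels. Per the deposited descriptions of the files, each replicate's list derives from the alignments of that replicate and from 1 more file of unstated role, and the IDR lists from those of the replicates and the pool. The names of aligner and caller and the threshold of the IDR were not given in the sources used here. Each peak's signal, as the authors deposited it, has no stated scaling. It was used only to rank and describe sites within a list, and the summit offset gave the position. Peaks on other contigs (10 of 64742) were left out.

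TSSs came from GENCODE M21 and sequence from GRCm38. GC content and the ratio of observed to expected CpG were taken over 1001 bp and the core over 101 bp. Signals per replicate were those of the highest peak within 100 bp. The highest peaks of a replicate are as many as the optimal list has sites, of 300000 deposited. Shares have 95% Wilson intervals, and tests were two-sided at 0.05. Benjamini-Hochberg adjustment was over the 8 comparisons with GC-rich sites, and separately over the 10 added later. Python 3.11.15, numpy 2.4.6, pandas 2.3.3, scipy 1.17.1 and matplotlib 3.10.9 were used, and the measures were tested on simulated data.

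Members and gene lists were chosen with earlier results of these data known. Named genes were the 10 with the strongest site by mean rank and the 5 strongest without a match at 2 mismatches. Up to 3 of each list were also named, and 3 of the 8 genes tied for the most members. Atf7ip was named as a further gene of these 8. The rest were the 3 of lowest GC, 2 on each side of the GC limit and the 3 of lowest rank. Predicted names were skipped, and a few of the selected genes are not reported here. Alternatives changed the list, the replicate, the GC limit and window, the TSS distance and set, the mismatches, the core window and the motif model. Leaving out protocadherin genes, masked summits or summits 200 bp or more from the TSS was added after the data were seen.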

Additional observations from a re-analysis of the deposited data

Results flagged for a closer look

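The pooled list holds further peaks at GC-poor promoters of 1 gene that lie over 2000 bp from any site of either IDR list and that no comparison above uses. Of 3268 such peaks, 181 had a CTCF core within 50 bp of the summit (5.54%, 95% Wilson interval 4.80 to 6.38). In windows 1000 bp to each side of the same peaks it was 50 of 6536 (0.765%, 0.581 to 1.01). The share is above that of the flanks and below the 22.2% of the members of lowest signal (the lowest of 4 equal bins). The difference was not tested.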

How the results depend on the processing

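Over 11 results and 18 alternative settings, 145 of 155 alternative values kept their direction and their side of the threshold, or stayed within 1.5 times the count. No alternative was run for the other 2 results, the peaks of both replicates and the membership of both IDR lists. The number of members was 757 among the 32366 sites of highest signal, 601 and 3575 with GC limits of 45% and 55%, 820 with TSSs within 500 bp, 1098 with 1 TSS a gene and 455 with summits under 200 bp from the TSS. The excess of strong sites among members over GC-rich sites became -5.12 percentage points among those 32366 sites (p = 0.00267, Fisher's exact test), -0.97 with a GC limit of 45% (p = 0.589) and 2.25 under 200 bp from the TSS (p = 0.264). The cause was not tested. The core lay on the gene's strand in 53.7% of cases with a GC limit of 55% (p = 0.0135, exact binomial test). The excess in core share ranged from 3.73 percentage points with no mismatch to 25.3 with a GC limit of 45%. Using the highest peaks of replicate 2 or replicate 1 alone gave 1657 and 1633 members and a core excess of 23.6 and 23.5 percentage points. Some alternatives gave no value by construction, namely the CpG letters with an exact core or the weight matrix and the outermost end with 1 TSS a gene. No paired analysis was possible because the samples form 1 group. Depth is unknown, and ratios between replicates were widest among weak sites.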
